A study of Homo sapiens with 6 samples.

Results

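The genes described here are zinc finger genes of ME-1, a human leukaemia cell line established from an acute myeloid leukaemia with inv(16), the inversion that fuses CBFB to MYH11. Cells were kept for 6 h with DMSO, the solvent, or with AI-10-49 at 1 µM, a small molecule that blocks the contact of the fusion protein CBFβ-SMMHC with RUNX1, and the inv(16) line is shared by both groups. RNA-seq libraries came from 3 independent experiments for each treatment. A zinc finger gene was taken to be any row of the authors' deposited table that names 1 gene whose symbol starts with ZNF, ZBTB, ZSCAN or ZKSCAN. This gave 261 rows of 6339, of which 231 were ZNF, 21 ZBTB, 6 ZSCAN and 3 ZKSCAN rows. ZNF227 stood on 2 rows, so the 261 rows held 260 symbols.

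Most of these genes encode proteins with tandem C2H2 fingers, small loops held by a zinc ion that each read a few bases of DNA. Many ZNF proteins also carry a KRAB domain, which recruits a corepressor and histone methyltransferases and silences transposable elements and other targets. ZBTB proteins pair their fingers with a BTB domain that binds corepressors or the ubiquitin ligase scaffold CUL3, and ZSCAN and ZKSCAN proteins carry a SCAN domain through which they dimerize. Several members of these families steer blood cell fate, such as ZBTB7A, a repressor of the fetal globin genes.

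The values are FPKM, fragments per kilobase of transcript and scaled to the fragments mapped in the library, so levels can be compared between genes per length, but not as molecules per cell. In a population of cells, fewer cells with a transcript and less transcript per cell cannot be told apart. Fold changes are given as the difference in mean log2(FPKM + 1), AI-10-49 minus DMSO, with its standard error (SE) from limma, and a row was called changed at a Benjamini-Hochberg adjusted p under 0.05 over all 6230 rows tested. The deposited table is itself a selection: 95.3% of the rows tested were called changed, and 4 of them had a log2 fold change under 0.2 in either direction. The number of zinc finger genes called is therefore not independent evidence of change, and their direction and size are described instead. AI-10-49 replicate 2 stood apart from the other libraries. It was the highest AI-10-49 library in 180 of the 231 zinc finger rows under 20 FPKM with AI-10-49 (median ratio to the other 2 libraries 1.10) and the lowest in 17 of the 27 rows of 20 FPKM or more (median ratio 0.927). The main counts and the changes of some genes are given with and without it. Changes given only with all libraries may also shift when it is left out. Of 11 identity genes of this line, 7 had a tested row, and 6 were called lower. SPI1 was also lower, by -0.47, but was not called. Without AI-10-49 replicate 2 all 7 were called lower. Among 17 markers of other lineages, 6 had a tested row and all 6 fell, where 49.1% of all rows tested were called lower, with a summed level of 74.2 to 79.1 FPKM in the DMSO libraries and 31.9 to 34.8 FPKM in the AI-10-49 libraries. The most abundant of these were the lymphoid genes CD3D and CD79B, none of the 6 had a mean of 0 in either group, and their part in the results below was not tested.

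Zinc finger transcripts mostly rose after 6 h with AI-10-49. Of the 258 zinc finger rows tested, 187 were called higher and 66 lower, which was 72.5% and 25.6%, against 46.2% and 49.1% of all rows tested. The median log2 fold change was 0.42 for zinc finger rows (quartiles -0.24 and 0.63) and -0.28 for all rows tested (quartiles -0.61 and 0.51). The AI-10-49 and DMSO libraries did not overlap in 253 of the 258 rows, against 96.2% of all rows tested. Without AI-10-49 replicate 2, 185 of these rows were called higher and 67 lower, with a median of 0.39. Quantile normalization moved the median of all rows tested from -0.28 to -0.06, and 184 zinc finger rows were then called higher and 68 lower, with a median of 0.39.

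The changes were modest in size. By the ratio of group means, 28 of the tested rows were at least 2-fold higher and 13 at least 2-fold lower with AI-10-49. On the log2(FPKM + 1) scale, 13 of the 258 rows rose and 2 fell by at least 1. Of all 6230 rows tested, called or not, 361 rose and 502 fell by as much. The largest ratios were 4.04-fold higher for ZNF596, from 0.482 to 1.95 FPKM, and 3.28-fold lower for ZNF850. No tested zinc finger row had a log2 fold change between -0.21 and 0.22, so genes that stayed level were not analysed here. The 5 rows not called were ZNF527, ZNF37BP, ZNF546, ZNF682 and ZNF624, with log2 fold changes from -0.25 to 0.25. ZNF311, ZNF460 and ZNF469 stayed under 1 FPKM in both groups and were not tested. Another 12 of the tested rows reached a mean of 1 FPKM only with AI-10-49 and 6 only with DMSO, so these rows entered the test through the group in which they were higher.

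**Figure D1:**
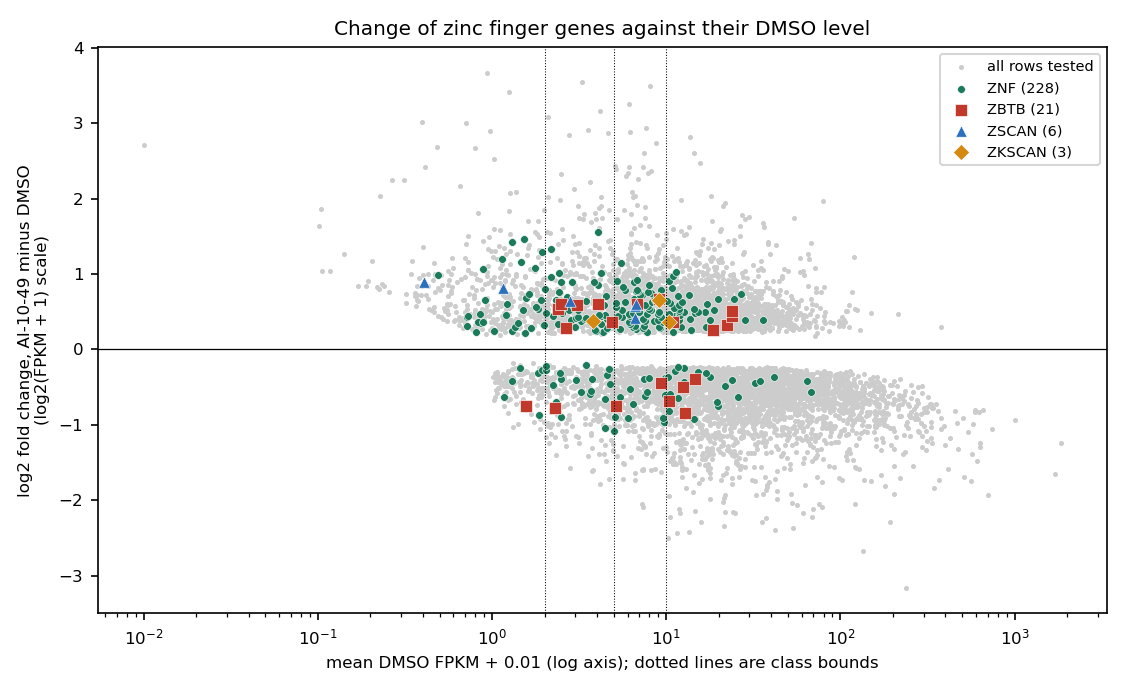
Log2 fold change (vertical axis, log2(FPKM + 1) scale) against the mean DMSO level (horizontal log axis, FPKM + 0.01) for all 6230 rows tested (grey) and for the tested ZNF, ZBTB, ZSCAN and ZKSCAN rows (coloured, 258 rows). Most coloured points lie above 0, and the empty band around 0 is a property of the deposited table.

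ZNF295 had the largest rise on the log2(FPKM + 1) scale, though ZNF596, ZSCAN12P1, ZNF425 and ZNF821 had larger ratios of means. It is now called ZBTB21 and encodes a BTB zinc finger repressor. It stood at 4.13, 4.03 and 3.97 FPKM in the DMSO libraries and at 13.6, 14.4 and 13.7 FPKM in the AI-10-49 libraries. Every AI-10-49 library was far above every DMSO library, and the spread within each group was small. The change was 1.56 ± 0.065 (SE; limma, adjusted p = 4.57e-10), or 3.44-fold by the ratio of means. An exact two-sided permutation test of 3 against 3 libraries cannot give less than 0.1, which is the value it gave here.

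The promoters of ZNF295, of ZBTB1, which also rose, and of ZNF296, which fell, are shown because each holds, within 100 bases of the start of transcription, CACGTG, the E-box that MYC and its partner MAX bind, and MYC chromatin is the subject of the series' title. They were picked for that match after the values were known. The 250 bases before the start of transcription, from RefSeq on GRCh38.p14, are written 5′ to 3′ on the strand of the gene with the E-box in capitals. They lie at chr21:42010361-42010610 on the minus strand, chr14:64503637-64503886 on the plus strand and chr19:45076479-45076728 on the minus strand.
ZNF295: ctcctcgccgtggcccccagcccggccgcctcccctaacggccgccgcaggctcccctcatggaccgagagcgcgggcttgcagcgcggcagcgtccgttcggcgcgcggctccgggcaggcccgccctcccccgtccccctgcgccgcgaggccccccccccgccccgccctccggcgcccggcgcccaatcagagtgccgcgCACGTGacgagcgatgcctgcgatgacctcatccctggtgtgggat
ZBTB1: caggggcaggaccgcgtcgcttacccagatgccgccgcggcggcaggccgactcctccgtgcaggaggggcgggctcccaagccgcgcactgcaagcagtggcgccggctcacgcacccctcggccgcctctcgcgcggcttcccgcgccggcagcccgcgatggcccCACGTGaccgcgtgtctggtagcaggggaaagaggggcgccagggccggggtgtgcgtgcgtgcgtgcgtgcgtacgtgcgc
ZNF296: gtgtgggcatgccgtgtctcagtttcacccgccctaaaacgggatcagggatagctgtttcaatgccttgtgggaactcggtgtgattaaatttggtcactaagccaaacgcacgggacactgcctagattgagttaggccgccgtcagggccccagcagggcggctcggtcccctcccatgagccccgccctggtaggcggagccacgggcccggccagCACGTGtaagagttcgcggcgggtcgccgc
The E-box starts 46 bases before the start of transcription in ZNF295, 82 bases before it in ZBTB1 and 30 bases before it in ZNF296. Among the named genes with a RefSeq promoter, ZSCAN18, which rose, also holds CACGTG, 220 bases before the start, and its promoter is not shown.

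The 300-base RefSeq windows also take in 50 bases after the start. CACGTG stood there in 5.13% of the 156 promoters of zinc finger genes called higher and in 7.14% of the 56 of those called lower. It stood in 7.43% of all 27305 RefSeq promoters, which are not limited to genes of the deposited table. TGTGGT, the core of the RUNX site, stood in 9.62%, 10.7% and 13.1% of the same sets. TGACTCA, the AP-1 site, stood in 1.92%, 3.57% and 4.92%, and TGATGNAA, the element bound by ATF4 and CEBP dimers, in 1.28%, 1.79% and 3.67%. Each motif was searched on both strands, no motif contains another, and a match is a run of letters rather than a bound site. The numbers behind these shares are small, with CACGTG in 8 promoters of genes called higher and in 4 of genes called lower, and no share was larger in the first set than in the second.

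Among the other ZNF genes with the largest rises on this scale were several that were low with DMSO. ZNF425, which has a KRAB pattern and 19 finger matches in its coding sequence, went from 1.16, 1.44 and 1.28 FPKM to 4.62, 5.60 and 5.33 FPKM, a change of 1.43 ± 0.094 (SE; limma, adjusted p = 2.7e-08). ZNF821, a short-array gene with 2 finger matches, went from 1.42, 1.15 and 1.97 FPKM to 6.58, 5.85 and 5.24 FPKM, a change of 1.47 ± 0.119 (SE; limma, adjusted p = 1.66e-07). Neither pair of groups overlapped. ZNF678 stood at 2.25, 2.21 and 2.01 FPKM with DMSO and at 6.35, 7.64 and 6.98 FPKM with AI-10-49, a change of 1.34 ± 0.085 (SE). ZNF654 began higher, at 5.99, 4.99 and 5.53 FPKM, and reached 12.6, 14.1 and 13.5 FPKM, a change of 1.15 ± 0.075 (SE). The remaining ZNF genes of this group were ZNF763, ZNF433, ZNF674 and ZNF442 and 1 row of ZNF227, with changes of 1.07 to 1.29. Groups that do not overlap were a condition for listing all the genes of this group. Among all rows tested, 96.2% had groups that did not overlap. ZNF442 averaged under 1 FPKM with DMSO, so it entered the test through the group in which it was higher. The other row of ZNF227, at 8.30 ± 0.571 FPKM (SD, n = 3) with DMSO, changed by 0.63. AI-10-49 replicate 2 was the highest AI-10-49 library in most of these low rows, and without it the changes of ZNF442 and ZNF674 were 0.99 and 0.96 in place of 1.07 and 1.08.

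The largest falls on the log2(FPKM + 1) scale were of ZNF70 and ZNF367. ZNF70 stood at 5.31, 5.37 and 4.38 FPKM with DMSO and at 1.83, 2.0 and 1.67 FPKM with AI-10-49, a change of -1.08 ± 0.094 (SE; limma, adjusted p = 3.09e-07). ZNF367 was at 4.42, 4.4 and 4.56 FPKM and fell to 1.53, 1.83 and 1.59 FPKM, a change of -1.04 ± 0.086 (SE; limma, adjusted p = 1.86e-07). Both were more than 2-fold lower in every AI-10-49 library than in any DMSO library. Next came ZNF576, ZNF74, ZNF485, ZNF584, ZNF324B, ZNF667, ZNF850 and ZNF296, with changes of -0.96 to -0.82. ZNF74, the most abundant of them, was at 13.8, 14.7 and 14.9 FPKM with DMSO and at 7.28, 7.58 and 6.59 FPKM with AI-10-49. ZNF850, with 29 finger matches, was at 2.02, 1.94 and 1.61 FPKM and then at 0.494, 0.720 and 0.484 FPKM, so its 3.28-fold ratio is a change of -0.87 on the log2(FPKM + 1) scale and of -1.57 with a pseudocount of 0.1. The groups overlapped in none of these 10 genes, which was a condition for listing them. ZNF667 and ZNF850 averaged under 1 FPKM with AI-10-49, so they entered the test through the group in which they were higher.

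**Figure D2:**
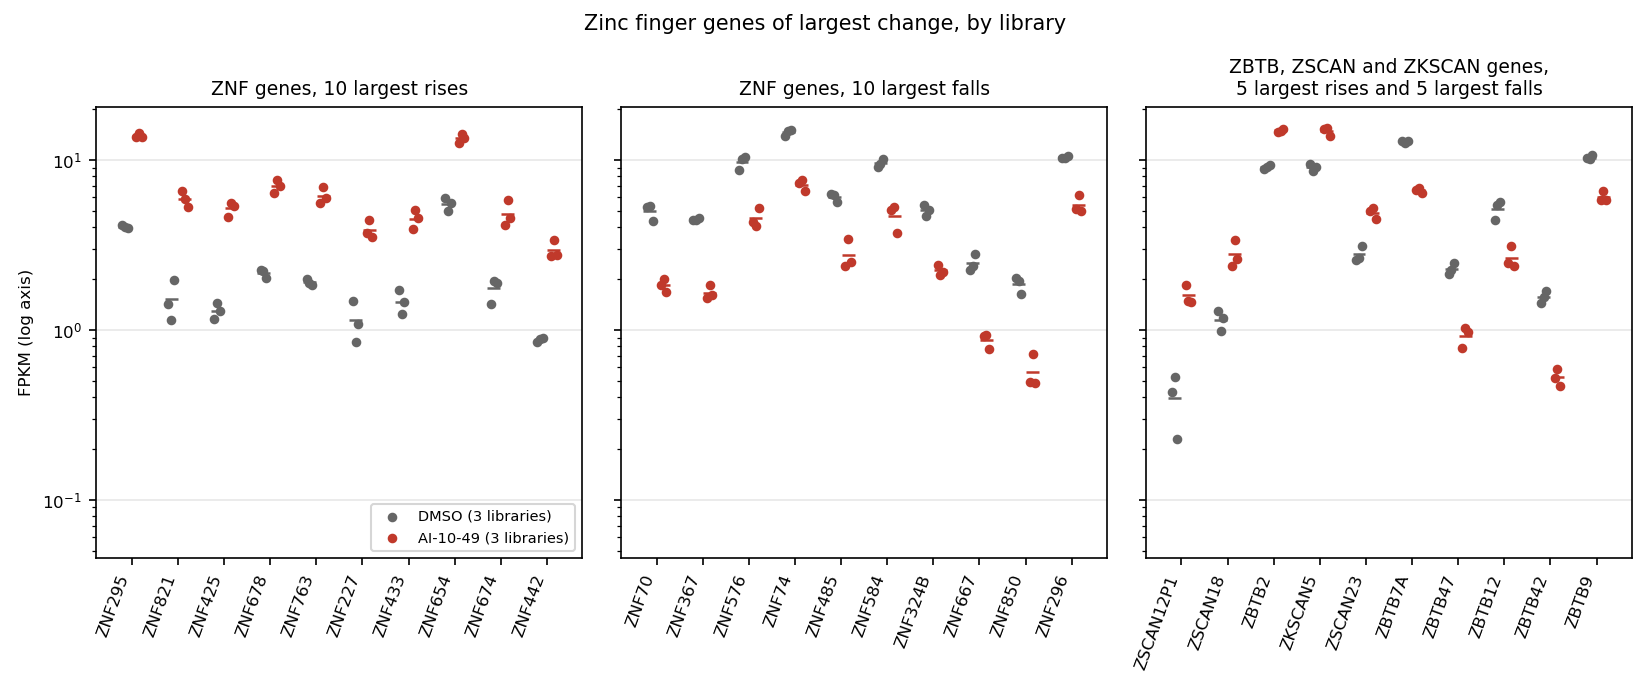
FPKM (vertical log axis) of each library for the ZNF genes with the 10 largest rises (left) and 10 largest falls (middle) and for the ZBTB, ZSCAN and ZKSCAN genes with the 5 largest rises and 5 largest falls (right), with DMSO in grey, AI-10-49 in red and bars at the means of 3 libraries. In every gene shown the 3 AI-10-49 points lie on 1 side of the 3 DMSO points, which was a condition for being shown.

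The ZNF prefix and the other 3 prefixes divided by direction in like proportions. Of 228 ZNF rows tested, 165 were called higher and 58 lower, with a median of 0.43, and of 30 ZBTB, ZSCAN and ZKSCAN rows 22 were called higher and 8 lower, with a median of 0.40. The 8 lower rows were all ZBTB genes, of which 13 of 21 were called higher. All 6 ZSCAN and all 3 ZKSCAN rows were called higher, with medians of 0.62 and 0.38. Symbols have changed since the table was made. By current symbols, 11 of which differ, 157 of 220 ZNF rows were higher and 58 lower, and 28 of 36 rows of the other 3 prefixes were higher and 8 lower. These counts are a description and the difference between prefixes was not tested.

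ZBTB7A fell most among the ZBTB genes on the log2(FPKM + 1) scale, and by the ratio of means it fell 1.92-fold, less than ZBTB42 (2.96-fold) and ZBTB47 (2.47-fold), which were lower with DMSO. It encodes LRF, which represses fetal globin and acts in several blood lineages. It stood at 12.8, 12.5 and 12.8 FPKM with DMSO and at 6.67, 6.84 and 6.39 FPKM with AI-10-49, a change of -0.85 ± 0.063 (SE; limma, adjusted p = 7.4e-08). The AI-10-49 libraries were all well below the DMSO libraries and close to each other. ZBTB47, ZBTB12, ZBTB42 and ZBTB9 changed by -0.77, -0.75, -0.74 and -0.68. ZBTB47 and ZBTB42 averaged under 1 FPKM with AI-10-49 and entered the test through DMSO, where they were higher. ZBTB9 is uncertain, because it is among the genes with shared 90-base windows described below. ZBTB2, a repressor, went the other way, from 8.78, 9.04 and 9.26 FPKM to 14.7, 14.9 and 15.2 FPKM, a change of 0.67 ± 0.060 (SE). The other ZBTB genes called higher changed by 0.26 for ZBTB48 to 0.61 for ZBTB10 and ZBTB49, and the other ones called lower, ZBTB45, ZBTB7B and ZBTB40, by -0.50, -0.45 and -0.39. ZKSCAN5, ZSCAN18 and ZSCAN23 changed by 0.66, 0.81 and 0.64. ZSCAN12P1, a pseudogene, was near the floor of the scale with DMSO, at 0.432, 0.528 and 0.227 FPKM, and was at 1.84, 1.49 and 1.47 FPKM with AI-10-49, a change of 0.90. It entered the test through AI-10-49, where it was higher.

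Level and direction were related in the whole table, and zinc finger genes are low on average. Their median DMSO level was 6.18 FPKM against 14.8 FPKM over all rows tested. Under 2 FPKM with DMSO, 32 of 42 zinc finger rows were called higher and 6 lower (76.2% and 14.3%, against 72.7% and 23.9% of all rows of that level). In this class, a row with a mean under 1 FPKM with DMSO was tested only if it reached 1 FPKM with AI-10-49. The direction of such rows was fixed by the filter, which held for 12 of the zinc finger rows and shaped the share of all rows too. From 2 to 5 FPKM, 48 of 67 were higher and 18 lower (71.6% and 26.9%, against 59.7% and 38.3%). From 5 to 10 FPKM, 63 of 79 were higher and 16 lower (79.7% and 20.3%, against 62.7% and 37.1%). At 10 FPKM or more, 44 of 70 were higher and 26 lower (62.9% and 37.1%, against 35.8% and 57.7%). The gap to all rows was thus smallest in the lowest class and largest in the highest, where the median log2 fold change was 0.38 for zinc finger rows and -0.40 for all rows. The class and the change use the same DMSO libraries. With classes set by the mean of the 6 libraries, 18 of 34 zinc finger rows under 2 FPKM were higher and 12 lower, against 51.8% and 43.5% of all rows, and at 10 FPKM or more 63 of 83 were higher and 20 lower, against 42.0% and 51.6%.

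**Figure D3:**
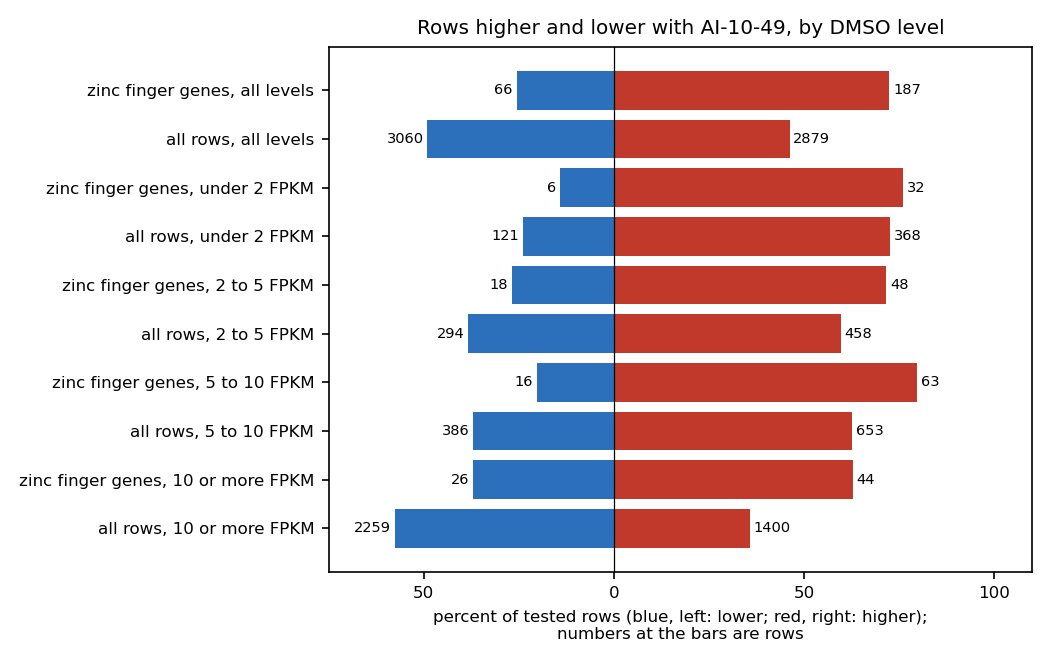
Share of tested rows called higher (red, to the right) and lower (blue, to the left) with AI-10-49, in percent, for zinc finger genes and for all rows in 4 classes of mean DMSO FPKM, with the number of rows at each bar. At 10 FPKM or more, 44 zinc finger rows were higher and 26 lower, whereas 1400 of all rows were higher and 2259 lower.

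The 3 zinc finger genes of highest level with DMSO all fell. At 10 FPKM or more with DMSO, 57.7% of all rows and 37.1% of zinc finger rows were called lower. The 3 were picked by their DMSO level, which also enters the change. ZNF146, a finger protein with neither a KRAB nor a BTB domain, stood at 67.5, 64.6 and 70.3 FPKM with DMSO and at 49.4, 38.1 and 48.9 FPKM with AI-10-49, a change of -0.57 ± 0.121 (SE; limma, adjusted p = 0.000671), or -0.45 without AI-10-49 replicate 2. ZNF22 stood at 63.7, 60.4 and 67.8 FPKM and then at 49.1, 40.3 and 53.9 FPKM, a change of -0.42 ± 0.123 (SE; limma, adjusted p = 0.00533), or -0.31 without that library. ZNF598, an E3 ubiquitin ligase that marks collided ribosomes, stood at 39.9, 41.1 and 43.8 FPKM and then at 33.9, 30.1 and 32.2 FPKM, a change of -0.37 ± 0.081 (SE). Replicate 2 was the lowest AI-10-49 library in each of the 3, and the other 2 AI-10-49 libraries were also below all DMSO libraries.

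Genes with known roles in blood cell fate moved in both directions. Of 16 listed, 6 had a tested row, 4 of which rose and 2 fell. Among all zinc finger rows tested, 72.5% were called higher and 25.6% lower, so these few rows do not stand apart. ZBTB17 encodes MIZ1, through which MYC represses some of its targets, and stood at 23.2, 23.3 and 24.99 FPKM with DMSO and at 35.5, 32.7 and 35.1 FPKM with AI-10-49, a change of 0.51 ± 0.071 (SE; limma, adjusted p = 1.89e-05). ZBTB1, which lymphoid development requires, went from 23.9, 23.6 and 23.8 FPKM to 33.4, 30.03 and 35.2 FPKM, a change of 0.45 ± 0.074 (SE). ZNF217, an oncogene product that works with histone demethylase and CoREST complexes, went from 10.6, 10.99 and 9.79 FPKM to 16.6, 16.1 and 16.9 FPKM, a change of 0.61 ± 0.064 (SE). In all 3 the AI-10-49 libraries were above the DMSO libraries. ZNF410, which activates CHD4 and so keeps fetal globin silent, changed by 0.74, but 82.1% of its 90-base windows are shared with another annotated gene. ZBTB7A fell, as described above, and ZBTB7B, the ThPOK factor of CD4 T cells, was at 9.13, 8.85 and 9.79 FPKM and then at 6.50, 6.97 and 6.05 FPKM, a change of -0.45 ± 0.072 (SE).

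Of 17 listed zinc finger genes that act in chromatin complexes or genome stability, 10 had a tested row, and 8 were called higher and 2 lower, a share near the 72.5% higher among all zinc finger rows. ZNF274, which brings the methyltransferase SETDB1 to the 3′ ends of other ZNF genes, stood at 14.7, 15.4 and 15.8 FPKM with DMSO and at 20.8, 21.98 and 23.05 FPKM with AI-10-49, a change of 0.49 ± 0.065 (SE; limma, adjusted p = 1.27e-05). ZNF644, a partner of the methyltransferases EHMT1 and EHMT2, stood at 18.5, 17.8 and 19.7 FPKM and then at 28.0, 26.4 and 27.1 FPKM, a change of 0.52 ± 0.066 (SE). ZNF451, a SUMO ligase, changed by 0.58, ZNF335, a subunit of histone methyltransferase complexes, by 0.51, ZNF280C by 0.44, ZNF592 by 0.38 and ZBTB48, a telomere-binding protein, by 0.26. The fallers were ZNF143, an activator that binds many promoters and chromatin loop anchors, and ZNF827, which recruits the NuRD complex to telomeres. ZNF143 stood at 7.66, 7.42 and 8.16 FPKM and then at 4.58, 5.59 and 4.56 FPKM, a change of -0.57 ± 0.082 (SE; limma, adjusted p = 3e-05), and ZNF827 changed by -0.39. ZBTB4, which binds methylated CpG, was the only gene of 6 listed methylated DNA binders with a tested row, and it changed by 0.37.

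Of 11 listed genes that act on ribosomes, translation or RNA, 5 had a tested row, with 3 called higher and 2 lower. The shares of all zinc finger rows tested were 72.5% higher and 25.6% lower. ZNF638, an RNA-binding nuclear protein, stood at 24.3, 25.4 and 24.1 FPKM with DMSO and at 41.6, 35.6 and 42.0 FPKM with AI-10-49, a change of 0.66 ± 0.081 (SE; limma, adjusted p = 6.34e-06). ZNF622, which matures the large ribosomal subunit, changed by 0.47, and ZNF346, which binds double-stranded RNA, by 0.37. ZNF385A, a partner of p53 and an mRNA-binding protein, changed by -0.56 ± 0.125 (SE), and ZNF598 fell as given above. AI-10-49 replicate 2 was the lowest AI-10-49 library for ZNF638, and without it the change was 0.74.

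Coding sequences were found in GENCODE 29 for 255 of the 260 symbols and were searched for C2H2 fingers, KRAB and SCAN patterns. They held up to 31 finger matches, with a median of 10. Rows with 1 to 4 finger matches were nearly even in direction, 21 higher and 18 lower of 39, with a median log2 fold change of 0.30. These shares were 53.8% and 46.2%, against 46.2% and 49.1% of all rows tested. Among all zinc finger rows tested they were 72.5% and 25.6%. With 5 to 9 matches 58 of 76 were higher and 18 lower, with 10 to 14 matches 66 of 90 were higher and 22 lower, and with 15 or more 33 of 43 were higher and 8 lower. In the 209 tested rows with 5 or more matches, 157 were higher and 48 lower, with a median of 0.44. The median DMSO level was 9.03 FPKM in the rows with 1 to 4 matches and 5.67 FPKM in those with 5 or more, so the 2 sets also differed in level, and the part of level in this contrast was not tested. The 5 rows without a match (ZBTB8OS, ZNF839, ZNF487P, ZNF720 and ZNF862) were all called higher, and ZBTB8OS carries its prefix for its position beside ZBTB8A and encodes no zinc finger transcription factor.

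A KRAB pattern was found in 153 symbols, all of them ZNF by prefix. It matched no ZKSCAN row, although that prefix names a KRAB and a SCAN domain. The pattern therefore misses KRAB domains, and rows without it are not all free of the domain. Of the 152 tested ZNF rows with it, 114 were higher and 34 lower, with a median log2 fold change of 0.45, and of 72 without it 48 were higher and 24 lower, with a median of 0.40. Their median DMSO levels were 5.36 and 9.10 FPKM. A narrower pattern, found in 137 symbols, gave 103 higher and 31 lower of 136 with it and 59 higher and 27 lower of 88 without it. SCAN patterns were found in 21 rows, and 20 of these were called higher. ZNF500 was the exception, at 8.54, 7.75 and 7.52 FPKM with DMSO and at 6.09, 6.26 and 5.30 FPKM with AI-10-49, a change of -0.38 ± 0.079 (SE; limma, adjusted p = 0.000576). Of the 232 tested rows with a coding sequence and no SCAN pattern, 163 were higher and 65 lower. The SCAN rows changed by -0.38 to 0.86 with a median of 0.49, against a median of 0.42 in the rows without the pattern. None of these differences was tested.

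**Figure D4:**
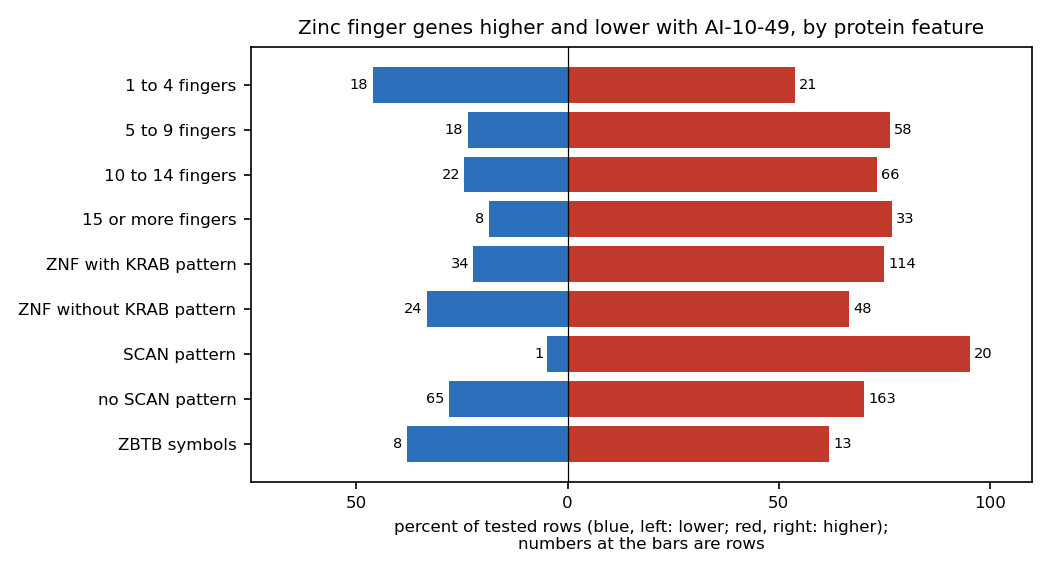
Share of tested zinc finger rows called higher (red, to the right) and lower (blue, to the left), in percent, by the number of C2H2 finger matches, by KRAB and SCAN pattern in the coding sequence and for ZBTB symbols, with the number of rows at each bar. Rows with 1 to 4 fingers were 21 higher and 18 lower, and SCAN rows 20 higher and 1 lower.

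Many zinc finger genes lie in clusters of near relatives. In the RefSeq gene order, runs were formed of zinc finger genes with at most 2 other coding genes between neighbours, and 10 runs held at least 5 tested members, 103 in all. Over all zinc finger rows tested, 72.5% were called higher and 25.6% lower. In the run that holds ZNF136 and ZNF844, 16 of 17 rows were called higher and ZNF443 lower, and in that of ZNF14 and ZNF93, 10 of 12 were higher and ZNF726 lower. Within the first of these the rises ranged from 0.28 for ZNF440 to 1.29 for ZNF763. The run of ZKSCAN4, ZNF165, ZNF187, ZNF323, ZSCAN12, ZSCAN16 and ZSCAN23 rose in all 7 members, by 0.37 to 0.86. ZNF187, now called ZSCAN26, stood at 9.41, 9.35 and 9.07 FPKM with DMSO and at 17.1, 17.1 and 16.3 FPKM with AI-10-49, a change of 0.79 ± 0.060 (SE; limma, adjusted p = 9.05e-08). All 5 members of the run of ZNF138 and ZNF92 were also called higher, by 0.30 to 0.64. Apart from the runs described here and below, 62.5% to 81.8% of the rows of a run were called higher. Differences between runs were not tested.

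One run went the other way. Of ZNF470, ZNF582, ZNF583, ZNF667 and ZNF71, 4 were called lower and ZNF582 higher, with a median log2 fold change of -0.41. ZNF667 stood at 2.25, 2.37 and 2.81 FPKM with DMSO and at 0.922, 0.925 and 0.768 FPKM with AI-10-49, a change of -0.89 ± 0.104 (SE; limma, adjusted p = 4.56e-06). ZNF71 went from 4.39, 4.12 and 4.80 FPKM to 2.0, 2.74 and 2.66 FPKM, a change of -0.65 ± 0.10 (SE). ZNF582 was at 1.53, 1.04 and 1.02 FPKM and then at 1.81, 2.16 and 2.0 FPKM, a change of 0.45 ± 0.114 (SE). The groups did not overlap in these 3 genes. They overlapped in ZNF470, at 1.73, 1.98 and 2.04 FPKM with DMSO and at 1.14, 1.90 and 1.26 FPKM with AI-10-49. Its adjusted p was 0.0495 in limma, a call lost in 6 of the alternatives that tested it.

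**Figure D5:**
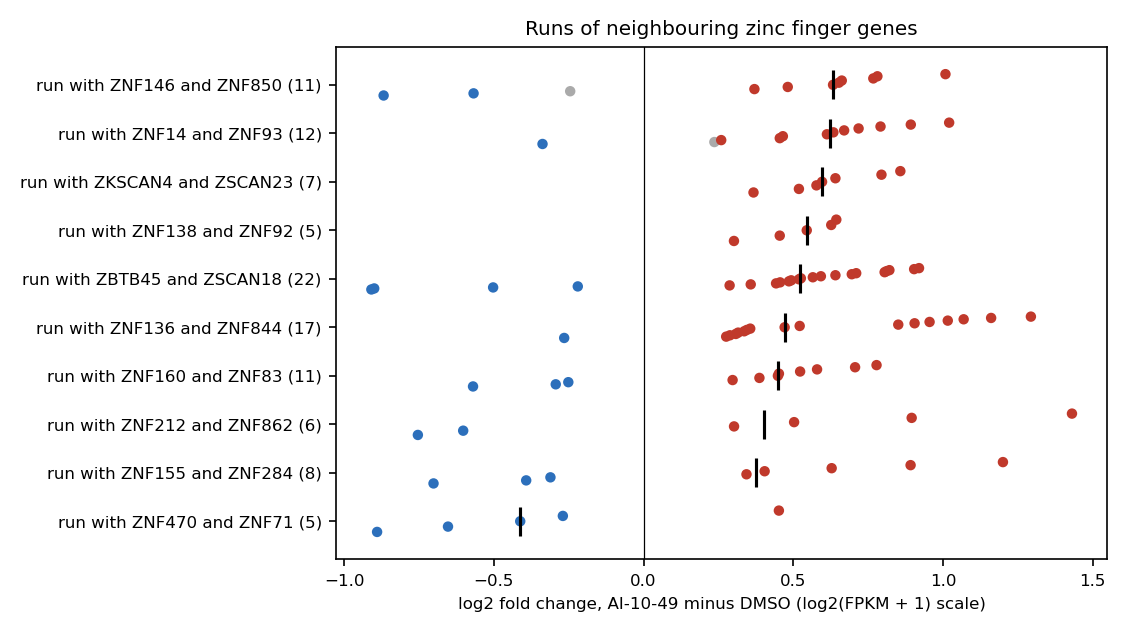
Log2 fold change (horizontal axis, log2(FPKM + 1) scale) of each tested row in 10 runs of neighbouring zinc finger genes, named by their first and last symbol in alphabetical order with the number of rows in brackets, with called rises in red, called falls in blue, rows not called in grey and the run's median as a black bar. The run with ZNF470 and ZNF71 has its median at -0.41, and the other 9 runs have theirs above 0.

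Neighbours of this kind can be similar in sequence, and short reads may not tell them apart. The windows were compared with all other annotated genes, including any that overlap the same place. A shared window therefore need not come from a neighbour of similar sequence. In 17 of 259 symbols, more than 20% of the 90-base windows of the longest transcript also occurred in a transcript of another annotated gene, and in 187 symbols none did. ZNF468 is uncertain on this ground, with 99.1% of its windows shared, most often with ZNF320. So are ZNF709 with 92.0%, ZNF564 with 83.1% and ZNF763 with 50.7%. Of these 17 rows 10 were called higher and 7 lower, and of the 240 tested rows with 20% or less 176 were higher and 59 lower, with a median log2 fold change of 0.43, so the rise of most zinc finger rows was also seen without the shared ones.

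Of 25 listed corepressor and heterochromatin genes that work with KRAB zinc finger proteins, 14 had a tested row, of which 3 were called higher and 10 lower, with a median log2 fold change of -0.40. All 14 stood at 10 FPKM or more with DMSO, where 35.8% of all rows were called higher and 57.7% lower and the median was also -0.40. UHRF1, which maintains DNA methylation after replication, stood at 52.4, 53.4 and 54.1 FPKM with DMSO and at 10.2, 9.34 and 8.98 FPKM with AI-10-49, a change of -2.37 ± 0.067 (SE; limma, adjusted p = 2.74e-11). The methyltransferases SUV39H2 and EHMT2 changed by -0.92 and -0.60 and the deacetylase HDAC1 by -0.64, or -0.49 without AI-10-49 replicate 2. SETDB1, the methyltransferase that KRAB complexes recruit, its partner ATF7IP and the HUSH subunit FAM208A were the 3 called higher, by 0.32, 0.41 and 0.33. SUMO2 was not called, and was called lower without AI-10-49 replicate 2, which made 11 lower. TRIM28, the corepressor that KRAB domains bind, was not analysed here. Of 14 listed BTB partners, 6 had a tested row, and 4 were called higher and 2 lower, against 46.2% and 49.1% of all rows tested. BCL6, itself a BTB zinc finger repressor under a symbol of its own, stood at 0.641, 0.901 and 0.928 FPKM with DMSO and at 5.30, 5.80 and 5.07 FPKM with AI-10-49, a change of 1.81 ± 0.098 (SE; limma, adjusted p = 4.46e-09). BCL6 averaged under 1 FPKM with DMSO, so it entered the test, and the count of 4 called higher, only through the group in which it was higher. HDAC5 changed by 0.90, TBL1X by 0.51 and BCORL1 by -0.59.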

How the data were processed

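RNA was taken from ME-1 cells after 6 h, 3 libraries for each treatment, made with a TruSeq RNA kit and read as 90-base pairs on a HiSeq 2000, per the labels. Tools named in the submitters' processing notes are Bowtie2 2.1.0, Cufflinks 2.2.0 and a Cuffdiff of unstated version, on the hg19 build. The authors' deposited table gives 1 FPKM value for each library in 6339 rows, and no source used here gives the rule that selected them. Since FPKM cannot be treated as counts, count models were left out, and library depth is unknown.

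The 6230 rows whose mean reached 1 FPKM in a group were fitted as log2(FPKM + 1) with limma 3.58.1 in R 4.3.3 (moderated statistics with a trend, two-sided, Benjamini-Hochberg adjustment, threshold 0.05). The procedure was also run on simulated data in which few rows were changed. Most rows of the deposited table were called, so that run does not measure how the calls behave here. Group values are means with SD over 3 libraries. Named genes were the 10 largest rises and falls among ZNF genes and the 5 largest among the other 3 prefixes (called, with groups that do not overlap), the 3 of highest DMSO level, the role lists and up to 4 genes from each of the 2 partner lists. Members of runs, the remaining ZBTB genes, rows not called, ZNF500, ZNF596 and genes with shared windows were named after their values were seen. The members and lists were chosen with earlier results of these data known. No set test was run.

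Same-numbered DMSO and AI-10-49 libraries deviated from their group means with correlations across rows of -0.15, 0.15 and 0.25, so the replicate numbers were not taken as pairs. Alternatives were quantile normalization, median scaling, pseudocounts of 0.1 and 0.5, low-value filters of 5 FPKM and none, a replicate block, limma without the trend, a threshold of 0.01, a log2 fold change of at least 1 and leaving out each library. Prefixes of current symbols and level classes by the mean of the 6 libraries were added after the data were seen.

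Current symbols, gene order and 300-base promoter windows came from RefSeq (GRCh38.p14), where 216 tested members had a promoter. Coding sequences and 90-base windows came from GENCODE 29. These are another build than the authors' hg19, so no position was carried between them. Finger matches were counted in the longest coding sequence and KRAB and SCAN patterns in any coding transcript. The KRAB pattern was widened after counts by the narrower one had been seen, because known KRAB genes were missed. Finger classes, runs, the 20% share of windows and the 20 FPKM split were also chosen after the data were seen. Plots were made with Python 3.11.15, pandas 2.3.3 and Matplotlib 3.10.9.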

Additional observations from a re-analysis of the deposited data

How the results depend on the processing

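There were 14 alternatives with a test on single genes. Of the 253 zinc finger rows called, 240 kept the call in every one of these that tested the row. Rows under 5 FPKM in both groups were not tested with the filter at 5 FPKM, so that filter says nothing about them. No row was called in the opposite direction in any alternative, and 13 lost the call in at least 1 of them (ZNF283, ZNF32, ZNF470, ZNF778, ZNF443, ZNF417, ZNF75D, ZNF319, ZNF853, ZNF563, ZNF557, ZNF396 and ZNF491). For the 60 named genes, all 824 alternative values kept their direction and their side of the threshold. Leaving out 1 library at a time gave 184 to 187 zinc finger rows higher and 62 to 67 lower, and 5730 to 6067 of all rows called. No pairing was assumed, and with the replicate number as a block 188 zinc finger rows were higher and 66 lower, of 6015 of all rows called. A threshold of 0.01 left 175 higher and 60 lower. Fewer rows enter a filter at 5 FPKM, and there 42 zinc finger rows were lower, 36 of them ZNF, while in the DMSO classes 3 rows were higher under 2 FPKM and 23 from 2 to 5 FPKM. A row that fell from under 5 FPKM cannot pass that filter, so the 0 lower rows from 2 to 5 FPKM are fixed by it, and under 2 FPKM it gave no value. With a minimum log2 fold change of 1, 836 of all rows passed, and 13 zinc finger rows were higher and 2 lower, all of them ZNF, with 0 higher and 0 lower under the other 3 prefixes. By DMSO class these were 7 higher and 0 lower under 2 FPKM, 4 and 1 from 2 to 5 FPKM, 1 and 1 from 5 to 10 FPKM, and 1 and 0 at 10 FPKM or more. With level classes by the mean of the 6 libraries, an alternative added after the data were seen, 18 rows under 2 FPKM were higher and 12 lower, and the cause was not tested. Precision is limited by 3 libraries a group, and the depth behind each FPKM is unknown.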
